A study of Mus musculus with 6 samples.

Results

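Cholesterol and fatty acids are built from acetyl-CoA, and the genes of both routes are followed here across 3 populations of mouse CD4 T cells and 2 genotypes. The set is a list of 38 gene symbols: the enzymes of the mevalonate and sterol steps, the regulators of SREBP, the enzymes of fatty acid synthesis and desaturation, and genes of sterol transport and efflux. A gene was taken where the array's annotation pairs a probe set with its symbol alone, and where it had several, the one brightest on average (mean of log2 signals) stood for it. This gave 35 genes of 18193 with a probe set of 1 symbol. Acat2, Nr1h2 and Soat1 were not analysed here.

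In the mevalonate pathway, acetyl-CoA is joined and reduced to mevalonate and then turned into isoprenoid units, which feed sterols, ubiquinone, dolichol and the lipid anchors of many signalling proteins. Sterol synthesis joins isoprenoids to squalene, closes the ring to lanosterol and trims it to cholesterol. Both routes, and much of fatty acid synthesis, are under the SREBP transcription factors, which are held in the endoplasmic reticulum by SCAP and INSIG while sterol is plentiful and are cut free by site-1 and site-2 proteases when it falls. Site-1 protease belongs to the same family of proprotein convertases as furin. T cells that leave rest and divide are known to turn this programme on and to turn sterol efflux, driven by liver X receptors, down.

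The series asked what loss of furin does to T cells. Control cells came from C57BL/6 mice with both Fur alleles flanked by loxP (Fur flox/flox), and the other genotype carried CD4 cre in addition (CD4 cre Fur flox/flox, called Furin cKO), so both genotypes hold the altered allele. A Cre driven by Cd4 acts in developing thymocytes, before the CD4 and CD8 lineages part. Mice were 10 to 11 weeks old, and the number of mice behind a sample is not given. Naive CD4+CD62L+CD44- cells were stimulated for 2 days on plates coated with antibodies against CD3 and CD28 at 5 µg/ml each (activated cells). CD4+CD62L-CD44+ memory cells and CD4+CD25+FoxP3+ regulatory cells were sorted and used fresh. Each of the 6 combinations was hybridised to 1 Affymetrix array, so no value has a replicate, and the number of arrays limits the precision. The deposited signals are linear MAS5 intensities with the same trimmed mean of 500.0 on every array, and a floor of 47.6 was set at the 40th percentile of all signals, below which a signal was raised to the floor before log2.

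The arrays carried marks that go with the results. On the activated arrays 49.4% and 49.8% of probe sets lay above the floor, against 62.6% to 67.4% on the fresh ones, and any separate handling of the populations cannot be told apart from the populations themselves. The targeted gene, Furin, read 516 and 468 in activated, 647 and 2203 in memory and 547 and 410.0 in regulatory cells, control first. In memory cells it was thus 3.40-fold higher on the array labelled Furin cKO, the opposite of a loss, and whether its probe set reads the deleted part is not known here, so that array is named by its label throughout. Foxp3, which defines regulatory T cells, read 50.4 and 33.8 on the regulatory arrays, near or below the floor, and 1358 and 1116 on the memory arrays, whereas the regulatory markers Il2ra, Ctla4 and Tnfrsf18 each read higher on both regulatory arrays than on both memory arrays. Markers of the cell cycle summed to 77041 and 78023 in activated, 23003 and 54488 in memory and 18367 and 27341 in regulatory cells. All 7 T cell markers with a probe set were above the floor on every array. Of these, 6 read lower on both activated arrays than on all 4 fresh ones, as did 32.3% of all genes tested. The list summed to 40482 and 40782 in activated against 95356 to 112508 in fresh cells. The ratio of 3′ to 5′ actin signals, a sign of RNA integrity, was 1.22 and 1.24 in activated, 1.93 and 1.56 in memory and 1.35 and 1.36 in regulatory cells. The spiked hybridisation control bioB read 656 and 758 on the activated arrays and 1808 to 4145 on the fresh ones.

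The main difference in this gene set was between activated and fresh cells. No array holds resting naive cells, so stimulation and naive origin cannot be told apart in this difference. Both activated arrays read above all 4 fresh arrays for 26 of the 35 genes, where 22.4% of all genes tested did so, and below all 4 for 6 genes, where 32.3% of all genes did so. The genes that were above span the mevalonate, sterol and fatty acid lists, together with Insig1, Insig2, Scap and Stard4. Those that were below were Ggps1, Srebf2, Acly, Acss2, Abca1 and Abcg1. The remaining 3, Mvd, Dhcr7 and Srebf1, overlapped between activated and fresh cells. A limma model of population plus genotype on the 6 arrays (2 residual degrees of freedom, Benjamini-Hochberg adjustment over 15808 genes, call at an adjusted p under 0.05), called 21 of the 35 higher and 6 lower in activated than in memory cells. Of all genes, 17.4% were called higher and 27.0% lower. Against regulatory cells it called 23 higher and 6 lower, with 18.1% and 26.5% of all genes. With 1 array per combination, the spread behind each SE and p-value is how population differences varied between the 2 genotypes, not between mice. The median log2 difference of the 35 genes was 1.0 against memory and 1.18 against regulatory cells, while the medians over all genes were -0.21 and -0.23.

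**Figure D1:**
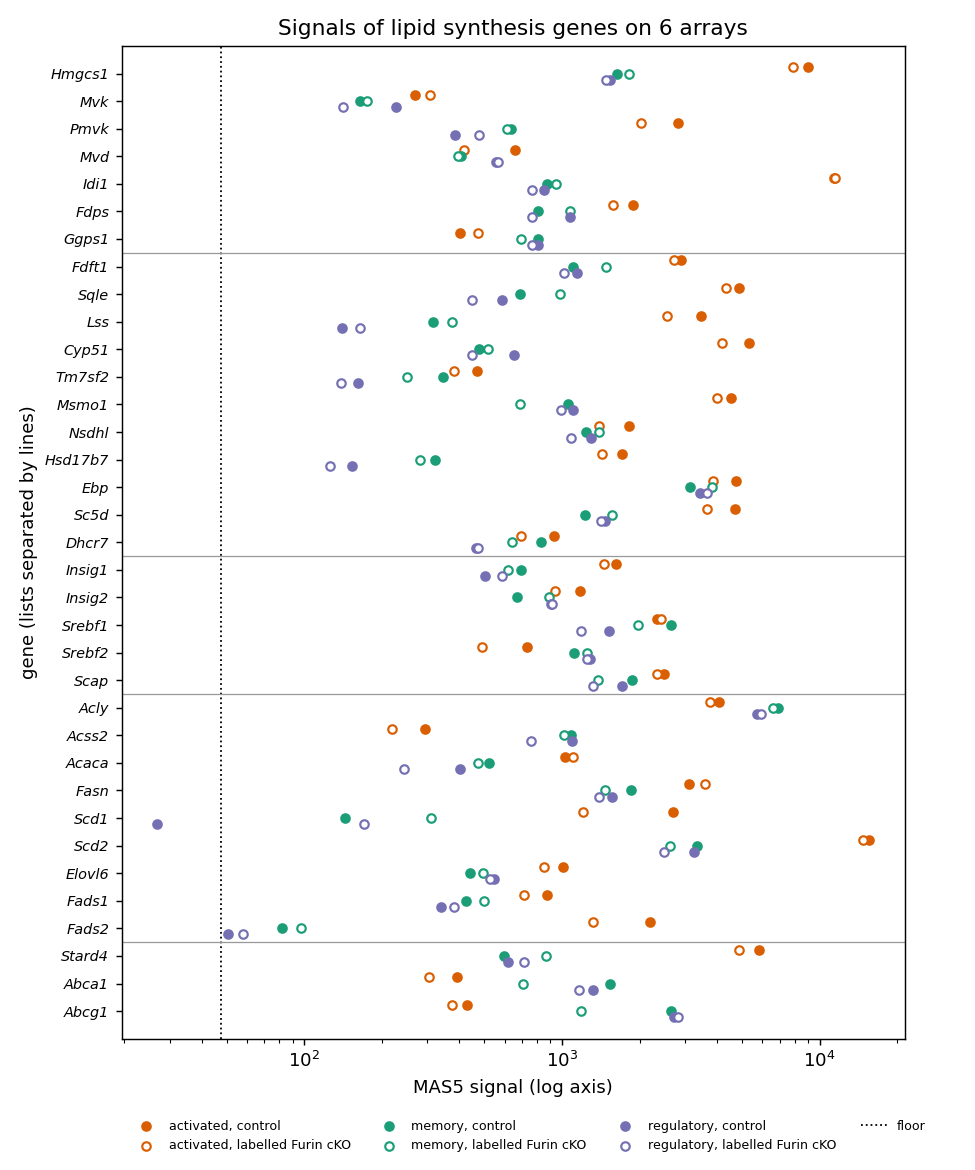
MAS5 signal (log axis) of the representative probe set of each of the 35 genes on the 6 arrays, with genes in rows and the lists separated by lines (mevalonate, sterol, SREBP regulators, fatty acid synthesis, transport and efflux); filled points are control arrays, open points the arrays labelled Furin cKO, and the dotted line is the floor of 47.6. The 2 activated points lie to the right of all 4 fresh points for 26 genes and to the left for 6.

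In the mevalonate pathway, 5 of 7 measured enzymes were above all fresh arrays, where 22.4% of all genes tested were. Hmgcs1, which condenses acetoacetyl-CoA with acetyl-CoA, read 8993 and 7886 in activated, 1637 and 1816 in memory and 1540.3 and 1485 in regulatory cells, each pair with control first, as in all pairs that follow. That is 4.88-fold above memory (log2 2.29, SE 0.16; limma adjusted p = 0.00205). Idi1, which interconverts the isoprenoid units IPP and DMAPP, had the largest difference of the list. It read 11348 and 11508 in activated, 873 and 949.9 in memory and 851 and 764 in regulatory cells, 12.6-fold above memory (log2 3.65, SE 0.15; limma adjusted p = 0.00181) and 14.2-fold above regulatory cells. Pmvk, phosphomevalonate kinase, read 2811 and 2018 in activated, 636 and 611 in memory and 384 and 478 in regulatory cells, a 3.82-fold difference from memory (limma adjusted p = 0.00547).

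The other mevalonate enzymes differed less. Mvk, mevalonate kinase, read 269 and 309 in activated, 164 and 176 in memory and 226 and 142 in regulatory cells. Fdps, which makes farnesyl diphosphate, read 1887 and 1575, 804 and 1075, and 1074 and 765 likewise ordered. Both were above all fresh arrays without reaching the threshold (limma adjusted p against memory 0.0864 for Mvk and 0.0568 for Fdps). Mvd, the decarboxylase that makes IPP, read 656 and 415 in activated, 405 and 393 in memory and 555 and 564 in regulatory cells, so that its activated array labelled Furin cKO lay within the fresh range. Its other probe set read 786 and 617 in activated and 311 to 409 in fresh cells, above all 4. Ggps1, which makes geranylgeranyl diphosphate for protein anchors, went the other way from its neighbours by its representative probe set. Its signals were 402 and 474 in activated, 807 and 694 in memory and 807 and 762 in regulatory cells, 1.72-fold below memory (limma adjusted p = 0.0264). Another probe set of similar brightness overlapped, with 663 and 765 in activated, 525 and 561 in memory and 562 and 771 in regulatory cells. The remaining Ggps1 probe sets were below all 4 fresh arrays.

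Sterol synthesis was higher nearly throughout: 10 of 11 enzymes read above all fresh arrays, where 22.4% of all genes tested did so. Limma called 8 higher than in memory and 9 higher than in regulatory cells, with none lower. The shares of all genes were 17.4% and 18.1% higher and 27.0% and 26.5% lower. Fdft1, squalene synthase, read 2908 and 2731 in activated, 1108 and 1482 in memory and 1140.2 and 1016 in regulatory cells (2.20-fold above memory, limma adjusted p = 0.0143). Sqle, squalene epoxidase, read 4859 and 4325, 686 and 984, and 587 and 447 likewise ordered (5.58-fold, limma adjusted p = 0.00418). Lss, which closes the ring to lanosterol, read 3473 and 2564 in activated, 317 and 374 in memory and 139.8 and 164 in regulatory cells. Lss was 8.67-fold above memory (log2 3.12, SE 0.23; limma adjusted p = 0.00224) and, the largest difference of the list, 19.7-fold above regulatory cells (log2 4.30; limma adjusted p = 0.00198). The size of this difference depends on the probe set. A dimmer Lss probe set was above all fresh arrays by much less, with 152 and 153 against 83.6 to 136, and another overlapped with them.

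The steps that remove methyl groups from lanosterol followed. Cyp51, the lanosterol demethylase, read 5339 and 4184 in activated, 477 and 516 in memory and 648 and 446 in regulatory cells (9.53-fold above memory, limma adjusted p = 0.00203). Msmo1, a sterol methyl oxidase, read 4548 and 4006, 1059.8 and 686, and 1104 and 992 (5.01-fold, limma adjusted p = 0.0025). Hsd17b7, the 3-ketosteroid reductase of the pathway, read 1718 and 1435, 321 and 280.5, and 153 and 125 (5.23-fold, limma adjusted p = 0.00198). In these 3 genes the lower activated signal of the representative probe set was several times the highest fresh signal. A dimmer Hsd17b7 probe set was above by less, with 635 and 451 against 172.5 to 297 in fresh cells. Another Hsd17b7 probe set, near the floor, overlapped, as did the dim second one of Msmo1. Nsdhl, which acts between Msmo1 and Hsd17b7, did not share this step: it read 1823 and 1397 in activated, 1241 and 1393 in memory and 1292 and 1088 in regulatory cells, and its activated array labelled Furin cKO stood just above the highest fresh array (limma adjusted p = 0.318 against memory).

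The remaining enzymes were mixed. Sc5d, which sets a double bond late in the pathway, read 4675 and 3641 in activated, 1230.1 and 1558 in memory and 1467 and 1415 in regulatory cells (2.98-fold above memory, limma adjusted p = 0.00728). A dimmer Sc5d probe set overlapped, with 415 and 326 in activated, 537 and 210.5 in memory and 306 and 287 in regulatory cells. Tm7sf2, a sterol reductase, read 467 and 379, 344 and 249.7, and 162 and 138 (1.43-fold above memory, limma adjusted p = 0.0476). The isomerase Ebp read 4727 and 3839.9 in activated, 3149.9 and 3807 in memory and 3447 and 3659 in regulatory cells, again with a small margin over the highest fresh array (limma adjusted p = 0.294 against memory). Dhcr7, which carries out a last reduction to cholesterol, read 928 and 696 in activated, 830.0 and 639.5 in memory and 465 and 473 in regulatory cells. Its activated and memory signals overlapped, and it was called only against regulatory cells (1.71-fold, limma adjusted p = 0.0281).

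Among the regulators of the pathway, Insig1 had the largest difference. This protein, which retains SCAP in the endoplasmic reticulum and is itself an SREBP target, read 1623 and 1453 in activated, 696 and 615 in memory and 504 and 587 in regulatory cells (2.35-fold above memory, limma adjusted p = 0.0076). Its paralog Insig2 read 1173 and 943, 672 and 890.3, and 906 and 914 (limma adjusted p = 0.188). Scap, the sterol sensor that escorts SREBP to the Golgi, read 2499.7 and 2345, 1863 and 1385, and 1714 and 1322 (1.51-fold above memory, limma adjusted p = 0.0429). The genes for the factors themselves gave no common direction. Srebf2, whose product drives the cholesterol genes, read 734 and 489.7 in activated, 1111 and 1252 in memory and 1290.1 and 1248 in regulatory cells (1.97-fold below memory, limma adjusted p = 0.0307). Its other probe set gave the opposite order, with 925 and 966 in activated and 761 to 877 in fresh cells, so the direction of Srebf2 is unsettled. Srebf1, tied more to fatty acid genes, read 2335 and 2423 in activated, 2645 and 1973 in memory and 1526 and 1186 in regulatory cells. Its activated and memory signals overlapped, and it was called higher than in regulatory cells (1.77-fold, limma adjusted p = 0.026).

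For fatty acid synthesis, 7 of 9 genes were called higher and 2 lower in activated cells, against memory and against regulatory cells alike. Of all genes, 17.4% and 18.1% were called higher and 27.0% and 26.5% lower. The lower count is thus not above the share of all genes. The 2 lower ones were Acly and Acss2. Acly, which makes cytosolic acetyl-CoA from citrate, read 4055 and 3751 in activated, 6906 and 6614 in memory and 5732 and 5898 in regulatory cells (1.73-fold below memory, limma adjusted p = 0.0132). Its second probe set read 9457 and 8862 in activated and 3104 to 3761 in fresh cells, again the opposite order, so the direction of Acly depends on the probe set. Acss2, which makes acetyl-CoA from acetate, read 293 and 219 in activated, 1082 and 1021 in memory and 1089 and 758 in regulatory cells (4.14-fold below memory, limma adjusted p = 0.00271). A second Acss2 probe set did not separate the populations, with 701 and 366, 623 and 702, and 695 and 601.

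Chain building was higher in activated cells for each enzyme measured, by its representative probe set. Acaca, acetyl-CoA carboxylase, read 1026 and 1106 in activated, 518 and 470.1 in memory and 401 and 243 in regulatory cells (2.16-fold above memory, limma adjusted p = 0.0253). Fasn, fatty acid synthase, read 3101 and 3586, 1861 and 1475, and 1558 and 1388 (2.01-fold, limma adjusted p = 0.0162). Elovl6, which lengthens palmitate, read 1008 and 849.7, 438 and 491, and 545 and 525 (2.0-fold, limma adjusted p = 0.0119). Another Elovl6 probe set overlapped, with 503 and 398 in activated and 302 to 453 in fresh cells. The desaturases, which introduce double bonds into finished chains, differed more. Scd2 read 15563 and 14682 in activated, 3345 and 2630.1 in memory and 3242 and 2487 in regulatory cells (5.10-fold, limma adjusted p = 0.00205). Fads2, the delta-6 desaturase of polyunsaturated fatty acids, read 2188 and 1323 in activated, 81.7 and 96.7 in memory and 50.7 and 58.0 in regulatory cells. The Fads2 difference was the largest of the set, 19.1-fold against memory (log2 4.26, SE 0.30; limma adjusted p = 0.00207) and 31.4-fold against regulatory cells, whose signals lay just above the floor. Its neighbour in the same pathway, Fads1, the delta-5 desaturase, read 872 and 711, 425 and 499.6, and 341 and 380.1 (1.71-fold, limma adjusted p = 0.0349). A dimmer Fads1 probe set read 173 and 170 in activated, 315.5 and 386 in memory and 103 and 156 in regulatory cells. The direction of Fads1 against memory thus depends on the probe set. Scd1 read 2688 and 1206 in activated, 143 and 310.0 in memory and 26.9 and 171 in regulatory cells. It varied most within populations, and its log2 difference from memory of 3.09 had an SE of 0.77 (limma adjusted p = 0.0353).

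Transport and efflux split. Stard4, which carries cholesterol between membranes and is an SREBP target, read 5827 and 4851 in activated, 598 and 868 in memory and 616 and 709.8 in regulatory cells (7.38-fold above memory, limma adjusted p = 0.00262). The efflux pumps, targets of liver X receptors, were lower in activated cells. Abca1 read 390.0 and 304 in activated, 1540.4 and 708 in memory and 1318 and 1164 in regulatory cells (3.03-fold below memory, limma adjusted p = 0.0131). Abcg1 read 429 and 376, 2654 and 1182, and 2730.0 and 2830.1 (4.41-fold below memory, limma adjusted p = 0.0104).

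**Figure D2:**
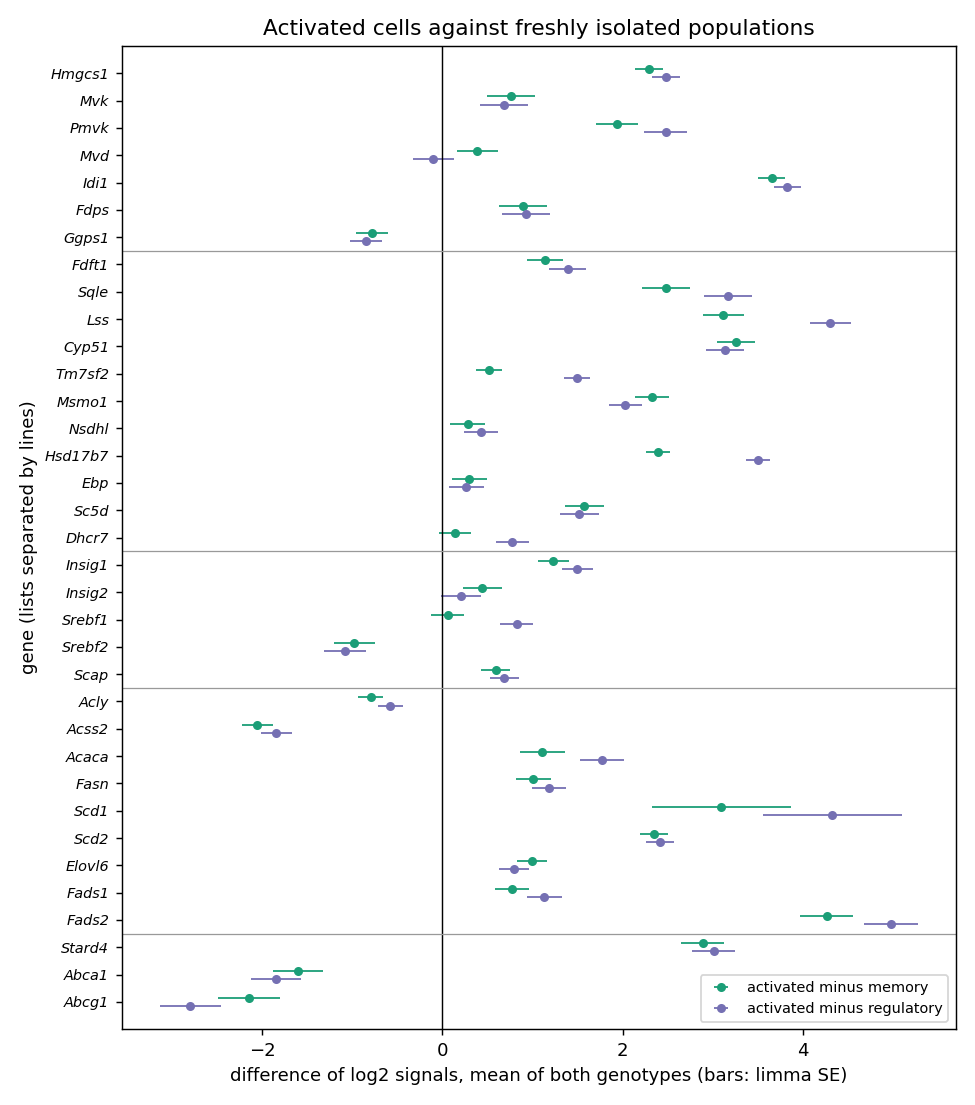
Difference in log2 signal of activated minus memory and activated minus regulatory cells for the 35 genes, as the mean over both genotypes with bars for the limma SE; genes are in rows, and the vertical line marks no difference. Fads2 lies farthest to the right in both comparisons, and Abcg1, Acss2 and Abca1 farthest to the left.

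These calls rest on few arrays. With all arrays, 27 members were called against memory and 29 against regulatory cells. Leaving out any 1 array leaves its population with 1 array. Against memory, fewer members and fewer of all genes were then called in every such fit. The same held against regulatory cells. Without the regulatory control or the regulatory Furin cKO array limma called no member there and no other gene. Each of the called members kept its direction in every such fit. This was nearly fixed beforehand, since each fit keeps all but 1 of the arrays on which the members were called. Cell cycle markers were higher in activated cells too, 7 of 9 above all fresh arrays, while many cell type markers were lower. Of all genes tested, 22.4% were above all fresh arrays and 32.3% below. Below all fresh arrays were 7 of 9 myeloid and dendritic cell, 6 of 7 T cell, 5 of 6 B cell, 6 of 10 granulocyte, 3 of 5 plasma cell and 2 of 3 NK and CD8 T cell markers. The part of these markers, of the actin ratio and of bioB in the differences was not tested, and on bulk arrays fewer cells of a type and less RNA per cell cannot be told apart. Where the genes had other probe sets, 20 of those of the 26 genes above all fresh arrays were also above, 11 overlapped, 1 was under the floor, and 2 dim ones, of Fdft1 and Scap, were below.

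Regulatory and memory cells did not differ by the test for any member: limma called 0 of 35, as it called 0.0% of all genes, with 5 members and 3358 of all genes at an unadjusted p under 0.05. Those 5 were all lower in regulatory cells. The sterol enzymes Lss, Hsd17b7 and Tm7sf2 differed by log2 -1.19, -1.12 and -0.97 (limma adjusted p 0.101, 0.0664 and 0.083). Srebf1 and Dhcr7 differed by -0.76 and -0.64. With 2 residual degrees of freedom, these values do not show that the 2 fresh populations are alike.

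Promoters of 6 of these genes are shown because 5 of them read far higher and 1, Abca1, lower in activated cells; each runs from 250 bases before to 50 after the transcription start given by RefSeq on GRCm38.p6, 5′ to 3′ on the gene's strand. Capitals mark exact matches, on either strand, to 3 short strings: TCACNCCAC, one form of the sterol regulatory element, CCAAT, the core bound by NF-Y, and GGGCGG, the core bound by Sp1; no match overlaps another here. The windows are Idi1 at chr13:8885356-8885655 (+), Lss at chr10:76531355-76531654 (+), Cyp51 at chr5:4104648-4104947 (-), Fads2 at chr19:10101454-10101753 (-), Hmgcs1 at chr13:119690101-119690400 (+) and Abca1 at chr4:53159846-53160145 (-).
Idi1: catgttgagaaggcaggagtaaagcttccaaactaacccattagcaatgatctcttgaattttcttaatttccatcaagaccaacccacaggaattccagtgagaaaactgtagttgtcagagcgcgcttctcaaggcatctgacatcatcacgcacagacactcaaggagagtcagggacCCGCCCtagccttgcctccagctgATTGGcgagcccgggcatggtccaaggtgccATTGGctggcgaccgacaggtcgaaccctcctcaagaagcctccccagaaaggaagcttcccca
Lss: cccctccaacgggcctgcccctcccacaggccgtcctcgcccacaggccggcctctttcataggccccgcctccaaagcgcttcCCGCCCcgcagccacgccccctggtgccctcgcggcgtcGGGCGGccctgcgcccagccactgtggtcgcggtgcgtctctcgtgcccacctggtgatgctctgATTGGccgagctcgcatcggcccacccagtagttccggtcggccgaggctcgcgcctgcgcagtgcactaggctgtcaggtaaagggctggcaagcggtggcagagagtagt
Cyp51: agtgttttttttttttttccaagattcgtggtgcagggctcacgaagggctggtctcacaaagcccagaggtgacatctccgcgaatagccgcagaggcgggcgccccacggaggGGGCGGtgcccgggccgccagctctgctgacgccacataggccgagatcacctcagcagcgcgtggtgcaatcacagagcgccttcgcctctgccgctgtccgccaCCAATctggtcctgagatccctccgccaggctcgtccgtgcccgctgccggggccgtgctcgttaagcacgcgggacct
Fads2: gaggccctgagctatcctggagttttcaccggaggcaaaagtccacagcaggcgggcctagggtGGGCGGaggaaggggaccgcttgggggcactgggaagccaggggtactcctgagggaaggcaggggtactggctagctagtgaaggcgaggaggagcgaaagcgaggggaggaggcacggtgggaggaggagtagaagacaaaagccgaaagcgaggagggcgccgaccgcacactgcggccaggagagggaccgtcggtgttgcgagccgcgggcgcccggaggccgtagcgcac
Hmgcs1: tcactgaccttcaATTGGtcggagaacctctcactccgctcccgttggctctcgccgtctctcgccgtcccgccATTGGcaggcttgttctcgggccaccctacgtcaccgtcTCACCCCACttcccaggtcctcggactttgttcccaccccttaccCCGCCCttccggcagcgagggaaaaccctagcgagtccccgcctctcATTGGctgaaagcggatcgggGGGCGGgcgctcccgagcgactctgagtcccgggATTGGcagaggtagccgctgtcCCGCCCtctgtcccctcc
Abca1: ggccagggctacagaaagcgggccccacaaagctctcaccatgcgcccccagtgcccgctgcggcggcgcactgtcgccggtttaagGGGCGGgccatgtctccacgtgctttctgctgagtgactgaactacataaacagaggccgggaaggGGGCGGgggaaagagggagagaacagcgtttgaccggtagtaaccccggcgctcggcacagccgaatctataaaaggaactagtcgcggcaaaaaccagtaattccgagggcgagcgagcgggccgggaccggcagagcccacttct

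Of these windows, Hmgcs1 holds 1 match to TCACNCCAC, 4 to CCAAT and 3 to GGGCGG. Idi1 holds 2 CCAAT and 1 GGGCGG, Lss 1 and 2, and Cyp51 1 of each. Fads2 holds 1 GGGCGG and Abca1 2, both without the other strings. The table used here has 38 promoter entries for 30 of the 38 listed genes, and Fdps, Scd1, Scd2, Fads1, Sqle, Fdft1, Stard4 and Abcg1 have no entry. TCACNCCAC is in 1 of the 38 entries (2.63%) and in 1.24% of all 32851 promoters of the same length. CCAAT is in 63.2% of the entries and 37.4% of all promoters, and GGGCGG in 73.7% and 35.7%. Among the genes above all fresh arrays, 15 of 19 hold CCAAT and 15 of 19 GGGCGG, and among the other measured genes 7 of 8 hold each, so these strings do not set apart the genes that were higher. A match is a string of letters and was not tested as a binding site.

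Between the genotypes, differences in the set were small in activated cells and ran mostly in 1 direction. On the activated array labelled Furin cKO, 29 of 35 genes read lower than on the control array, where 51.0% of the 10756 genes measured did so. Of the 35, 12 were lower by 1.25-fold or more and 0 higher by as much, against 9.69% and 8.4% of all genes. The median log2 fold was -0.26, with -0.005 over all genes and a robust spread of single genes (scaled median absolute deviation) of 0.207. With 1 array against 1, the spread between mice is unknown and no p-value can be given, so these counts describe a pair of arrays.

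By their representative probe sets, all 11 sterol enzymes read lower on the activated array labelled Furin cKO, by log2 -0.09 to -0.44 with a median of -0.30. Lss was 1.35-fold lower, Dhcr7 1.33-fold, Nsdhl 1.30-fold, and Cyp51 and Sc5d 1.28-fold each. Fdft1, 1.06-fold lower by its representative probe set, was 1.52-fold lower by another bright one (3509 against 2301). The mevalonate enzymes split into 4 lower and 3 higher. Mvd, at 656 against 415, was 1.58-fold lower and Pmvk, at 2811 against 2018, was 1.39-fold lower, while Ggps1, Mvk and Idi1 were 1.18, 1.15 and 1.01-fold higher. The second Mvd probe set also read lower, 786 against 617.

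In the other lists the same direction was common. Among the regulators, Srebf2 was 1.5-fold lower by its representative probe set, 734 against 489.7, but its other probe set read 925 and 966. Srebf1 was at 1.04-fold higher. Of the fatty acid genes, Scd1 was 2.23-fold lower (2688 against 1206) and Fads2 1.65-fold lower (2188 against 1323). Their other probe sets also read lower: 422 against 306 for Scd1, and 713 against 472 and 224 against 154 for Fads2. Acss2 was 1.34-fold lower, and 1.92-fold by its second probe set (701 against 366). Scd2 was 1.06-fold lower by its representative probe set and 1.54-fold and 1.52-fold lower by the others. Fasn and Acaca, the chain builders, were 1.16 and 1.08-fold higher. Stard4, Abca1 and Abcg1 were each lower, by 1.2, 1.28 and 1.14-fold. Over all other probe sets of the members measured in activated cells, 31 of 38 had the direction of the representative one, and of the 23 genes with several, 13 were lower by every probe set and 3 higher by every one.

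Cell cycle markers hardly differed between the activated arrays, with a median log2 fold of 0.01 over 9 genes. The summed myeloid and dendritic cell markers were low on both activated arrays (2058 and 2233 against 5492 to 20875 on the fresh ones). The share of probe sets above the floor was nearly equal on the 2 activated arrays. Some markers of other lists did differ. Among them, Cd4 read 2425 on the control array against 1821, Lef1 2791 against 2093, and Ccr7 6370 against 8502. The part of these measures in the folds of the members was not tested.

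In memory cells the set had no common direction: 18 of 35 genes were higher and 17 lower on the array labelled Furin cKO, where 50.7% of 14235 genes were lower. Of the 35, 7 were higher by 1.25-fold or more and 9 lower by as much, against 24.5% and 25.2% of all genes. The median was 0.10, and the spread of single genes, 0.474 over all genes, was wider than in activated cells. The cholesterol enzymes were higher in 11 of 18, with a median of 0.12. Sqle was 1.43-fold higher (686 and 984), and Fdft1 and Fdps 1.34-fold each. Msmo1 was 1.54-fold lower (1059.8 and 686), Tm7sf2 1.38-fold and Dhcr7 1.30-fold lower. Sc5d, 1.27-fold higher by its representative probe set, was 2.55-fold lower by another (537 and 210.5).

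The largest memory differences in the set were in efflux and desaturation. Abca1 was 2.18-fold lower (1540.4 and 708) and Abcg1 2.25-fold lower (2654 and 1182). A second probe set of each read lower as well, with 349 and 154 for Abcg1 and 73.4 and 45.6, the latter below the floor, for Abca1. Scd1 was 2.16-fold higher (143 and 310.0), though its other probe set lay below the floor on both memory arrays. Stard4 was 1.45-fold higher, and its other probe sets were 1.33-fold and 2.21-fold higher.

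Markers of other cells differed on the same memory arrays. Of the myeloid and dendritic cell markers 7 of 9 were lower on the array labelled Furin cKO, with a median log2 fold of -0.49 and a sum of 20875 against 12518. None of these 9 was at 0, and Siglech, H2-Ab1 and Cd68 were each over 2-fold lower. Cell cycle markers were higher in 9 of 9, with a median of 2.06, and the plasma cell list summed to 3822 against 19095. The granulocyte list summed to 2337 against 8274. The part of these cells in the folds of Abca1, Abcg1 and the other members was not tested.

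In regulatory cells 22 of 35 genes were lower on the array labelled Furin cKO, where 51.9% of 14587 genes were. Of the 35, 9 were lower by 1.25-fold or more and 1 higher by as much, beside 18.1% and 18.7% of all genes, and the median was -0.08. Acaca was 1.65-fold lower (401 and 243) and Mvk 1.60-fold lower (226 and 142). Cyp51 was 1.45-fold lower, with its other probe sets lower by 1.36-fold and, from 91.5 to a signal below the floor, by at least 1.92-fold; Acss2 was 1.44-fold lower and Fdps 1.41-fold lower. Pmvk was 1.25-fold higher (384 and 478). Scd1 read 26.9 on the control array, below the floor, and 171 on the array labelled Furin cKO, a fold of at least 3.59, while its other probe set lay below the floor on both arrays at 31.8 and 3.9. Cell cycle markers were higher in 8 of 9 genes on this array, with a median of 1.16. Granulocyte markers were higher in 6 of 8, with a median of 1.01 and a sum of 1679 against 3052. The plasma cell list summed to 15768 against 7815, and the median log2 fold of the 2 measured erythroid markers was -1.76. The part of these markers in the folds of the members was not tested.

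**Figure D3:**
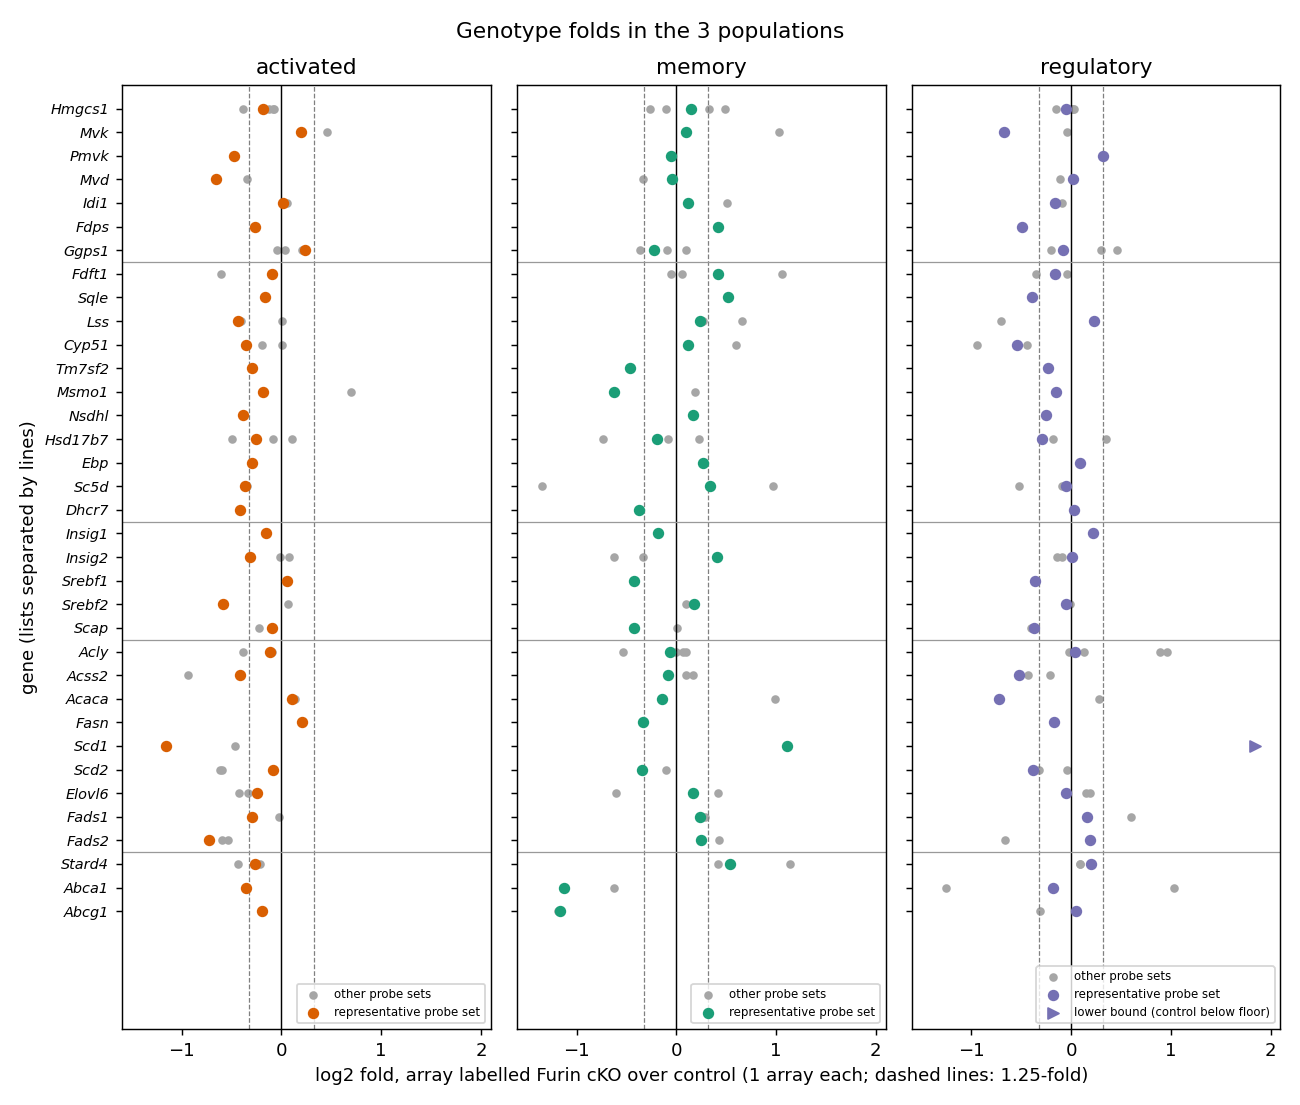
Log2 fold, array labelled Furin cKO divided by control, for the 35 genes (rows, lists separated by lines) in activated, memory and regulatory cells; coloured points are the representative probe sets, grey points the other probe sets above the floor, the arrowhead is a lower bound, and the dashed lines mark 1.25-fold. In activated cells 29 of 35 coloured points lie left of 0 and none lies right of the upper dashed line, while in memory cells 18 lie to the right of 0.

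Across the 3 populations no gene of the set was higher on all 3 arrays labelled Furin cKO, and 7 were lower on all 3: Tm7sf2, Msmo1, Hsd17b7, Scap, Acss2, Scd2 and Abca1. Of all genes measured in the 3 populations 17.0% were lower in all 3, and the share higher in all 3 was not counted. Lower in activated and higher in memory cells were 16 of 35 genes, among them Hmgcs1, Sqle, Lss, Cyp51, Fads1, Fads2 and Stard4. Of all genes, 22.7% were. Neither this share nor the 17.0% is a matched measure, since 29 of 35 members but 51.0% of all genes were lower in activated cells. With 29 of 35 lower there and 18 of 35 higher in memory cells, a count near 16 needs no link between these populations. It is thus not a pattern of its own. The 3 comparisons share no array. Across the 35 genes the log2 folds in activated and memory cells had a Spearman rho of -0.33 and those in activated and regulatory cells one of -0.46, against 0.04 and 0.02 over all genes. The value for activated and memory cells was 0.04 over the 18 cholesterol genes and -0.85 over the 9 fatty acid genes, and that for activated and regulatory cells was -0.53 and -0.67. Genes measured on the same arrays are not independent points, and these values are a description.

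A model over the 3 populations called no member for genotype. Limma called 0 of 35 genes, as it called 0.0% of all genes, with 1 member, Tm7sf2, and 450 of all genes at an unadjusted p under 0.05. Tm7sf2 differed by log2 -0.33 (SE 0.118; limma adjusted p = 0.82), and 28 of 35 members had a mean below 0. These p-values measure how far the difference varied between populations, not between mice.

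**Figure D4:**
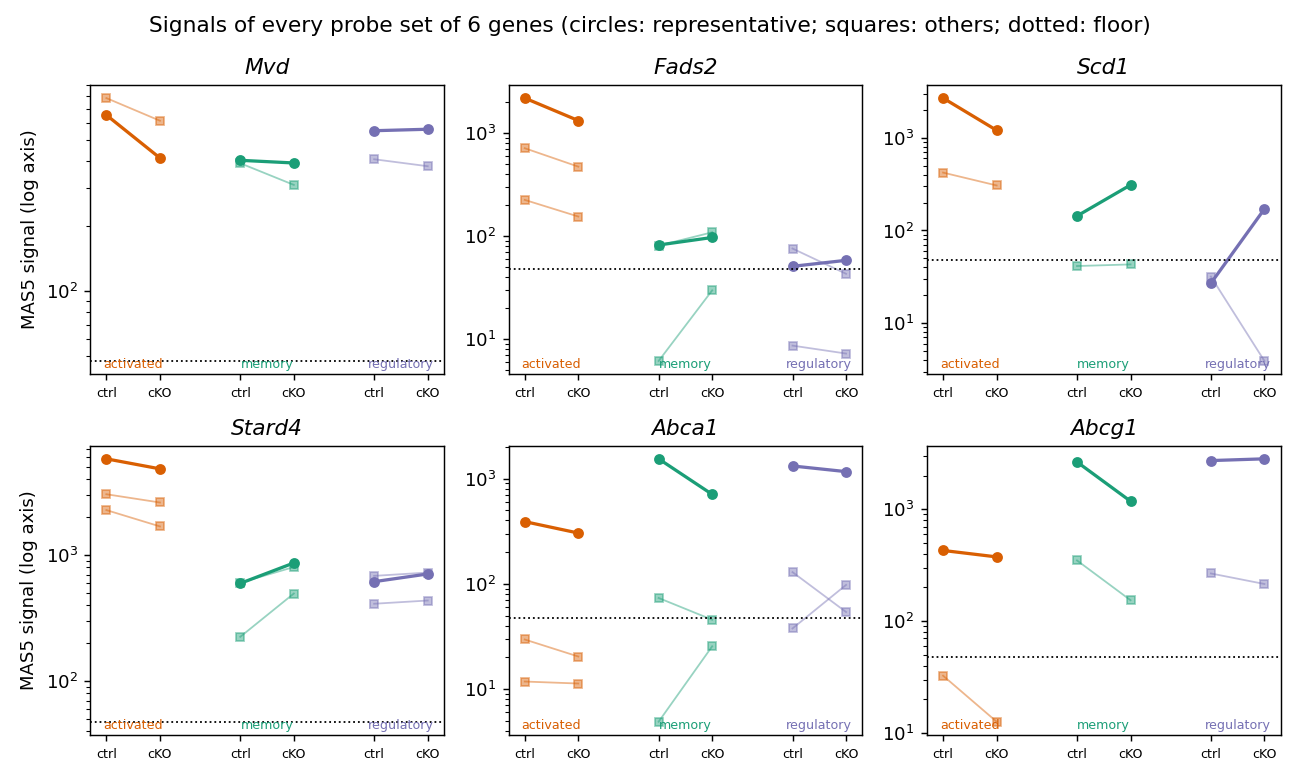
MAS5 signals (log axis) of every probe set of Mvd, Fads2, Scd1, Stard4, Abca1 and Abcg1 on the control (ctrl) and Furin cKO arrays of each population; circles are the representative probe sets, squares the others, lines join the 2 arrays of a population, and the dotted line is the floor of 47.6. All probe sets of Mvd, Fads2, Scd1 and Stard4 read lower on the Furin cKO array in activated cells, and those of Stard4 read higher in memory cells.

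Neighbouring pathways were read from lists drawn up around these genes. Of the proteases that free SREBP, 1 of 2 was called between populations: Mbtps2, site-2 protease, read 1963 and 1857 in activated, 757 and 684 in memory and 874 and 873 in regulatory cells (log2 1.41 above memory; limma adjusted p = 0.00347). Mbtps1, site-1 protease, read 1799 and 1616, 2604 and 1732, and 2139.7 and 2001, with limma adjusted p-values of 0.255 against memory and 0.301 against regulatory cells. Of the list of SREBP cleavage and liver X receptor partners (5 of 7 with a probe set), limma called 1 gene higher and 1 lower in activated than in memory cells, where, as for the lists that follow, 17.4% of all genes were called higher and 27.0% lower. The lower one was Nr1h3, liver X receptor alpha, which lay below the floor on both activated arrays and read 92.1 to 156 in fresh cells.

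Other genes of acyl chains, glycerolipids and citrate export (16 of 18 tested) were called higher in 7 cases and lower in 2 in activated against memory cells. In the genotype comparison of activated cells 12 of 15 were lower, with a median log2 fold of -0.13. The lowest were Dgat1, the last enzyme of triglyceride synthesis (717 against 521, log2 -0.46), and Slc25a1, the mitochondrial citrate carrier (2072 against 1532, log2 -0.44). Me1, malic enzyme, was the highest of these lists in memory (40.9, below the floor, against 102) and in regulatory cells (78.4 against 145). Dgat2 followed in memory cells (135 against 233) and Acsl3 in regulatory cells (152 against 239), while Elovl7 read 126 against 76.1 in regulatory cells.

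Genes that use isoprenoids and genes that burn fatty acids had medians near 0 in the genotype comparison of activated cells. Prenylation, dolichol and ubiquinone genes (10 of 11 measured) were 5 higher and 5 lower there, with a median of 0.02. In memory cells 7 of the 10 were lower, with a median of -0.37, and Fntb, a farnesyltransferase subunit, read 371 against 155 in memory and 191 against 46.4 in regulatory cells, the last below the floor. Fatty acid oxidation genes (15 of 16 measured) were 6 higher and 9 lower in activated cells, with a median of -0.05, and 11 of 15 were higher in memory cells, with a median of 0.18. Between populations, 6 of 15 were called higher and 4 of 15 lower in activated than in memory cells, the lower share being near that of all genes. Hadha, a subunit of the mitochondrial trifunctional protein, was the furthest below, at 399 and 396 against 1778 to 2204 in fresh cells (log2 -2.24 from memory; limma adjusted p = 0.00203).

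Lysosomal and oxysterol genes (8 of 8 with a probe set) were lower in 7 of 8 on the memory array labelled Furin cKO, with a median log2 fold of -0.42. Cyp27a1, which makes an oxysterol, read 448 against 167 there and lay below the floor on the other 4 arrays. The myeloid and dendritic cell markers were lower on the same array, as given for Abca1 and Abcg1, and their part was not tested. Npc2, a lysosomal sterol carrier, was the exception with 10670.2 against 18084. In activated cells Ch25h, which makes 25-hydroxycholesterol, read 79.7 against 131 and Lipa, the lysosomal acid lipase, 519 against 619.8.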

How the data were processed

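RNA of 6 samples was hybridised to 1 Affymetrix array each. The authors deposited linear MAS5 intensities, per the submitters' processing notes; version and settings: not given in the sources used here. After trimming 2% at each end, each array's mean is 500.0. Of 45037 non-control probe sets (64 controls were left out), 34945 carry 1 symbol, 932 several and 9160 none; only the first were named. Signals under the pooled 40th percentile (47.6) were raised to it, a comparison left out genes under it on both arrays, and a fold from such a signal is a lower bound. Log2 values were computed here from the deposited intensities. Genotypes were compared as 1 array over 1; populations and the mean genotype difference were tested with limma 3.58.1 in R 4.3.3 over all 6 arrays, checked on simulated data. Other work used Python 3.11.15. Alternatives were quantile and cyclic loess normalisation, floors at the 20th (13.3) and 60th (144.8) percentile, an offset of 50 without a floor, all probe sets of a gene averaged, population alone in the model, and each array left out. All members and the genes of the lists could be named, with all 6 signals for the members; of the neighbouring lists, those named are the 2 largest folds each way per population and some chosen after their values were seen. The members and lists were chosen with earlier results of these data known.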

Additional observations from a re-analysis of the deposited data

Results flagged for a closer look

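For 4 genes the fold was at least 1.25-fold in opposite directions in a pair of populations. With 1 array per group the difference between populations was not tested. The share of all genes that meet this rule was not counted, so the number is not a result about the set. Single folds of that size were common, as in memory cells, where 24.5% of all genes were higher and 25.2% lower by as much. Scd1 was lower on the array labelled Furin cKO in activated cells (log2 -1.16) and higher in memory (1.11) and regulatory cells (1.84, a lower bound), differences of -2.27 and -3.0 on the log2 scale. Sc5d was lower in activated (-0.36) and higher in memory cells (0.34), a difference of -0.7, and another of its probe sets was lower in both. Fdps was higher in memory (0.42) and lower in regulatory cells (-0.49), a difference of 0.91. Sqle was also higher in memory (0.52) and lower in regulatory cells (-0.39), with the same difference of 0.91.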

How the results depend on the processing

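Of the values that summarise a comparison, 94 kept their direction and stayed within 1.5 times (counts) or 0.1 on the log2 scale (medians) under an alternative, 14 moved further and 1 reversed. The 94 include counts of 0 that stayed at 0, for genotype and for regulatory against memory cells. As reported, limma called 0.0% of all genes in those comparisons, so that agreement says little about the members. The reversed one was the fatty acid median in memory cells, 0.06 with all probe sets of a gene averaged, against -0.06. With that average the cholesterol median in activated cells was -0.18 instead of -0.28 and the fatty acid median in regulatory cells -0.16 instead of -0.05. Between regulatory and memory cells 2 members were called under a floor at the 60th percentile and 1 with population alone in the model, against 0. Without 1 array in turn, 9 to 17 members were called between activated and memory cells (27 with all arrays), 0 to 21 between activated and regulatory cells (29 with all), and 0 for regulatory against memory cells and for genotype; the remaining array of a group is then assumed to vary like the others. Under the other alternatives 20 to 29 and 23 to 31 members were called between activated cells and each fresh population. With the memory arrays left out 28 genes were above and 6 below the fresh arrays, and with the regulatory arrays left out 27 and 6, an alternative chosen after seeing the data. Of 10 single folds past 1.5, 3 stayed past it in every alternative; with the mean of probe sets Mvd in activated cells was at -0.50, Abca1 in memory cells at -0.58, Scd1 in memory cells at 0.56 and Acaca in regulatory cells at -0.22. No paired analysis was possible because the labels carry no replicate numbers to use as a block; the term for population already sets each Furin cKO array against the control of its own population. Signals near the floor, as for Fads2 and Scd1 in regulatory cells, limit the size of their folds.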
